A study of Mus musculus with 8 samples.

Results

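The genes described here are those of the mouse antioxidant system that runs on glutathione, peroxiredoxins and thioredoxins, measured in the whole testis of Iqch mutant mice and their wild-type controls. They were chosen by symbol only, as the protein-coding genes of the glutathione transferase (Gst, Mgst), glutathione peroxidase (Gpx), peroxiredoxin (Prdx), thioredoxin reductase (Txnrd) and superoxide dismutase (Sod) families, with Txn1, Txn2, Txndc2, Txndc8, Gclc, Gclm, Gss, Gsr, Cat, Nqo1, Nfe2l2 and Keap1. This gave 51 genes of the 17127 in the deposited table. Another 9 annotated genes that fit the rule had no row and are not analysed here, namely Gpx2, Gpx5, Gpx7, Gsta1, Gsta5, Gsta13, Gstm3, Gstp2 and Gstp3. The 51 genes were divided by background knowledge into 8 germ-cell forms (Gstm5, Gsto2, Gpx4, Prdx4, Prdx6b, Txnrd3, Txndc2 and Txndc8), 32 other forms of the same families, and 11 genes of glutathione synthesis, peroxide and superoxide removal and their regulation. This division was made with earlier results of these data known.

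RNA was extracted from the testes of 4-month-old males, labelled WT or Iqch-/-. The study made the mutants by injecting Cas9 and guide RNA into B6CBAF1 zygotes and used homozygotes of lines that carry a short frameshifting deletion in a late coding exon, which is predicted to truncate the IQCH protein. The labels do not say which line a mouse came from, though the study's coverage plot of Iqch names its mutant data Iqchmu7. The libraries analysed were those of wild types 1 to 4 and of mutants 1, 2 and 4, while mutant 3 is not analysed here and the study left out 1 mutant as an outlier.

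Values are CPM, read counts of a gene scaled to a library total of 1000000. Each library held 32064384 to 37551057 reads if its smallest step of CPM is taken as 1 read. Iqch itself fell from 208 ± 11.3 CPM (SD, n = 4) to 67.3 ± 2.25 CPM (SD, n = 3), a log2 fold change of -1.63 (SE 0.05, limma FDR 1.9e-10). Errors of CPM below are SDs over the same numbers of libraries. Log2 fold changes are of mutant over wild type on log2(CPM + 0.1), with standard errors (SE), and a gene was called at an FDR (Benjamini-Hochberg adjusted over 17126 tested genes) below 0.01 in limma. Across the tested genes the log2 fold change had a median of 0.12, and dividing the CPM by median-of-ratios size factors brought it to -0.013. A gene that moved with the bulk of the transcriptome therefore reads slightly higher in the mutant.

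Glutathione is a small thiol that is made by glutamate-cysteine ligase and glutathione synthetase, spent by transferases and peroxidases, and recycled by glutathione reductase at the cost of NADPH. Peroxiredoxins take their electrons mainly from thioredoxins, which are in turn recycled by thioredoxin reductases. The testis is known for forms of these enzymes that are made mostly or only in spermatogenic cells, and some of them end up as structural parts of sperm. Glutathione transferases are also abundant in steroid-producing Leydig cells and in Sertoli cells.

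Selenium links the peroxidases to the reductases, because several members of both families read an in-frame TGA codon as selenocysteine at the active site. The codons below show that Gpx4 and Gpx1, and likewise Txnrd3 and Txnrd1, hold the same kind of site. The other pairs compared later belong to other families, for which no such codon is shown. They are read from the GENCODE canonical transcripts on GRCm39, 5′ to 3′ on the coding strand, with the codon in capitals. Gpx6 and Gpx8 are shown because their aligned codons read cysteine instead.
Gpx4, germ-cell form, codon at chr10:79890571-79890573: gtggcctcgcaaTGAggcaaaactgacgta
Gpx1, codon at chr9:108216650-108216652: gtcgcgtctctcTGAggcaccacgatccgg
Gpx3, codon at chr11:54798082-54798084: gtagccagctacTGAggtctgacagaccaa
Gpx6, chromosome 13: gtggcatccttcTGTggcctgacagctacg
Gpx8, chromosome 13: gtggctagtgacTGCcgcttcacagacaag
Txnrd3, germ-cell form, codon at chr6:89651771-89651773: ctggacattactcagaaaggctgcTGAggc
Txnrd1, codon at chr10:82731871-82731873: ggagacatcctccagtctggctgcTGAggt
Txnrd2, codon at chr16:18296522-18296524: ctggagcctactgtgactggttgcTGAggc
In the reductases the TGA was the last codon but 1 of the coding sequence, while in the peroxidases it lay in the first part, at codon 47 of 201 in Gpx1, 73 of 226 in Gpx3 and 73 of 197 in Gpx4.

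The calls differed by class, and the classes were set with earlier results of these data known. Of the 8 germ-cell forms, 7 were lower in the mutant, 0 were higher and Prdx4 was not called. Of the 32 other forms, 25 were higher, 3 (Gstt4, Gpx6 and Mgst2) were lower and 4 were not called. Of the 11 synthesis, removal and regulation genes, 6 were higher, 1 was lower and 4 were not called. The 6 higher genes include Nqo1, which was tested only because its mutant values reached 2.2 CPM. Over all tested genes, 36.3% were called higher and 14.2% lower on the deposited CPM, which together makes 50.4%. With size factors these shares were 27.0% higher and 25.1% lower, or 52.1% together. Medians of the log2 fold change were -0.34 for the germ-cell forms, 1.00 for the other forms and 0.25 for the synthesis, removal and regulation genes, against 0.12 for all genes. Over the 51 genes, 31 were higher and 11 lower (25 and 13 with size factors). The groups did not overlap in 43 of them, of which 32 lay above and 11 below the wild types. Of all tested genes 62.3% did not overlap, with 42.8% above and 19.5% below. The heat map of single libraries shows the same division in each mutant.

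**Figure D1:**
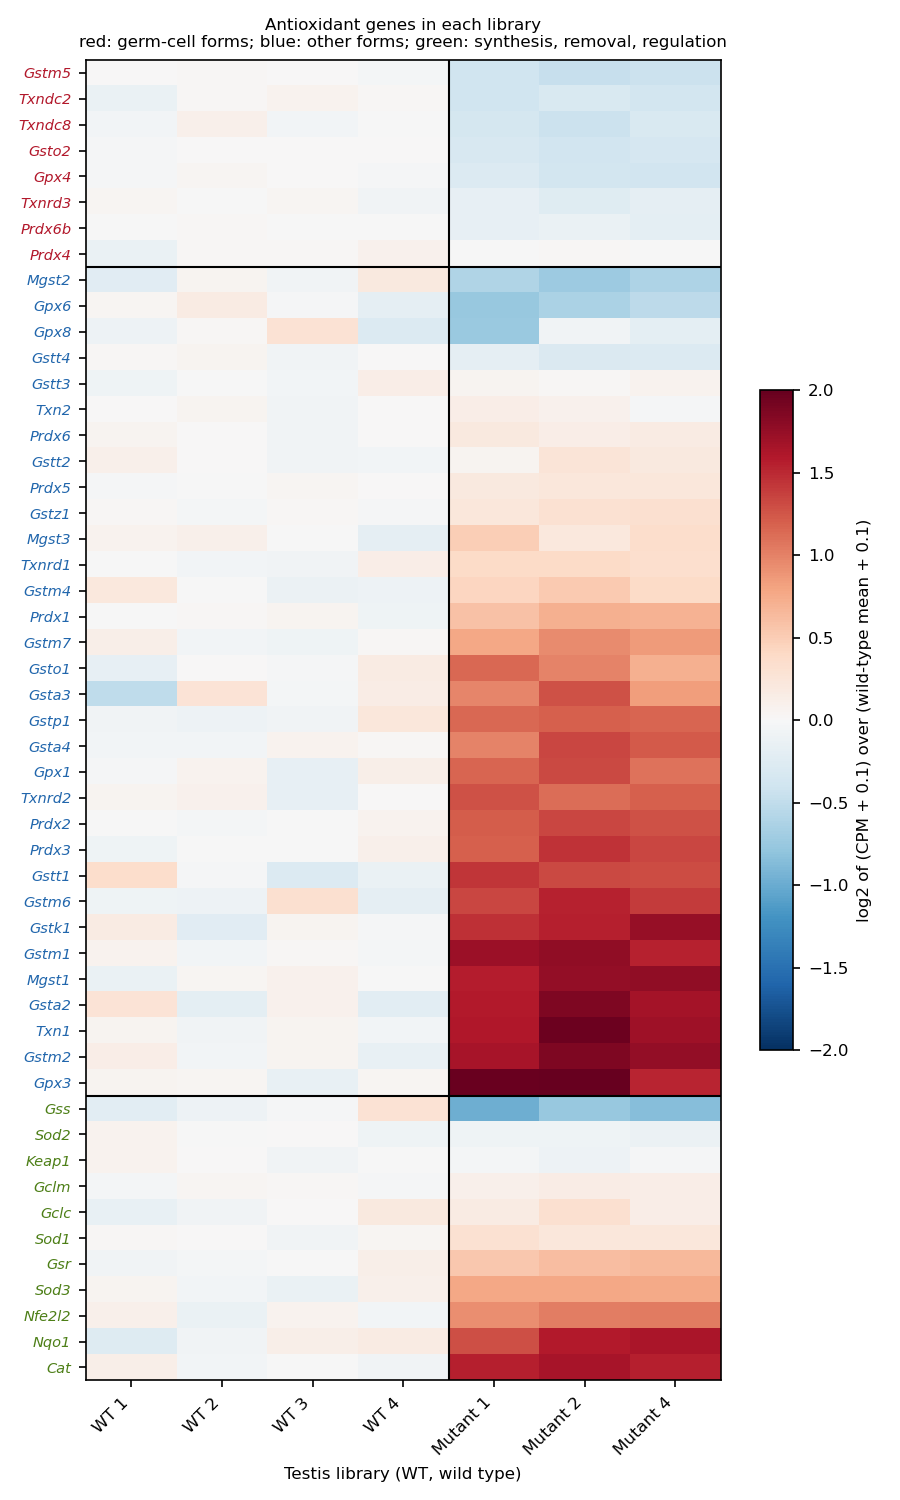
Log2 of each library's CPM + 0.1 over the wild-type mean + 0.1 for the 51 antioxidant genes (rows) in 4 wild-type and 3 mutant testis libraries (columns), with red above and blue below the wild-type mean. The mutant columns are pale blue for 7 of the 8 germ-cell forms and red for most of the other forms.

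Markers of testis cell types were read beside these genes. All 9 late spermatid markers were lower in the mutant (median log2 fold change -0.61), and their summed level was 24568 to 26062 CPM over the wild types and 15784 to 18020 CPM over the mutants. Of 8 round spermatid markers 6 were lower and 0 higher (median -0.22; summed 1199 to 1269 and 992 to 1078 CPM), while of 8 spermatocyte markers 1 was higher and 0 lower (median -0.018; 1332 to 1388 and 1261 to 1378 CPM). Of 7 spermatogonial markers with a row 4 were higher (median 0.31; 112 to 124 and 166 to 193 CPM). Scaling by size factors left 1 spermatogonial marker, Kit, higher (median of the list 0.18). It left 0 spermatocyte markers higher and 3 lower (median -0.15). It gave 8 lower round spermatid markers and 9 lower late spermatid markers.

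Markers of somatic cells were mostly higher. Of 8 Leydig cell markers 7 were higher (median 1.64), with a summed level of 1132 to 1345 CPM in the 4 wild types and 4709 to 4853 CPM in the 3 mutants. All 9 Sertoli cell markers with a row were higher (median 0.83; 335 to 358 and 619 to 647 CPM), as were 7 of 8 macrophage markers (median 1.56; 76.6 to 86.0 and 199 to 233 CPM) and 2 of 4 endothelial markers (median 0.84; 12.4 to 15.9 and 28.6 to 29.7 CPM). Among 5 peritubular myoid markers 1 was higher and 1, Actg2, a smooth muscle actin, was lower (299 ± 20.9 CPM in the wild types and 221 ± 15.5 CPM in the mutants), and 0 of 4 erythroid markers were called (31.8 to 47.0 and 36.4 to 49.4 CPM). With size factors 7 Leydig, 7 Sertoli, 7 macrophage and 2 endothelial markers were higher and 0 lower.

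Epididymal tissue was little represented, since 2 of 10 epididymal markers had a row, summing to 5.17 to 6.46 CPM in wild types and 6.64 to 8.39 CPM in mutants. The markers without a row were Fshr, Tagln, Esam, Tie1, Hbb-bt, Slc4a1, Nanos3 and 8 epididymal genes. The part of these cell types in the changes of the antioxidant genes was not tested. In whole testes, fewer cells of a type and less RNA per cell cannot be told apart.

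**Figure D2:**
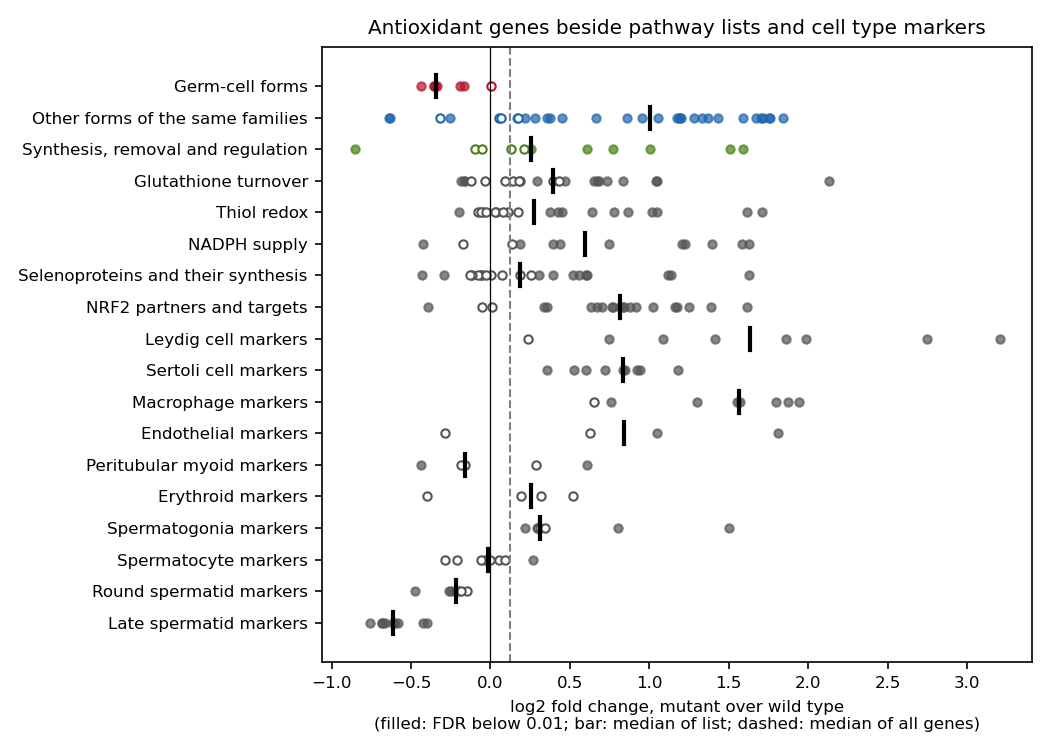
Log2 fold change of mutant over wild type (x axis) of each gene in the 3 classes of antioxidant genes, 5 lists of pathway genes and 10 lists of cell type markers, with filled points for FDR below 0.01, a bar at the list's median and a dashed line at the median of all genes. The median of the germ-cell forms lies between those of the round and late spermatid markers, and the other forms spread from -0.64 to 1.84.

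Gstm5 encodes a mu class transferase of spermatogenic cells and lies on chromosome 3 from 107803137 to 107806005 of GRCm39. It stood at 1810.4, 1844, 1810.4 and 1758 CPM in wild types 1 to 4 and 1363, 1306 and 1333 CPM in mutants 1, 2 and 4. Every mutant lay below every wild type, and the gene fell by 0.44 on the log2 scale (SE 0.04, limma FDR 4e-07). At 1911 CPM per kb of its canonical transcript, Gstm5 was the most abundant of the 51 genes in wild-type testes and remained so at 1412 CPM per kb in the mutant. A lncRNA on the opposite strand, 4933431E20Rik, overlaps 14.6% of its exon bases, and the strand setting of the counting is not given in the sources used here.

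Both testis thioredoxin-domain genes fell by a similar amount. Txndc2 encodes a thioredoxin of the sperm tail (chromosome 17 from 65944301 to 65949163) and stood at 544, 609, 629 and 605 CPM in wild types 1 to 4 and 452, 484 and 460.4 CPM in mutants 1, 2 and 4. Txndc8 encodes a thioredoxin that is associated with the Golgi apparatus and the forming acrosome of spermatids (chromosome 4 from 57984027 to 58009124) and stood at 109, 121, 109 and 113 CPM in wild types 1 to 4 and 88.8, 84 and 91.6 CPM in mutants 1, 2 and 4. The groups overlapped in neither gene. The log2 fold changes were -0.36 (SE 0.05, limma FDR 4.9e-05) for Txndc2 and -0.36 (SE 0.05, limma FDR 6.1e-05) for Txndc8.

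Gsto2 encodes an omega class transferase with dehydroascorbate reductase activity (chromosome 19 from 47853943 to 47874763). It was measured at 246, 252, 251 and 253 CPM in wild types 1 to 4 and 199.8, 192 and 198 CPM in mutants 1, 2 and 4, with no overlap, and fell by 0.35 on the log2 scale (SE 0.04, limma FDR 4e-06). Txnrd3 encodes the thioredoxin-glutathione reductase of the testis, in which a glutaredoxin domain is joined to a thioredoxin reductase (chromosome 6 from 89620934 to 89652512). It was at 523, 503, 519 and 486 CPM in wild types 1 to 4 and 455, 429 and 449.6 CPM in mutants 1, 2 and 4. The lowest wild type was above the highest mutant, and the decrease was 0.19 on the log2 scale (SE 0.04, limma FDR 0.0011).

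Gpx4 encodes the selenoenzyme that reduces phospholipid hydroperoxides, and its product also becomes a structural part of the sperm mitochondrial sheath (chromosome 10 from 79883000 to 79892273). It was at 148, 154, 151 and 148 CPM in wild types 1 to 4 and 124, 117 and 115 CPM in mutants 1, 2 and 4, so that every mutant was below every wild type. The decrease was 0.34 on the log2 scale (SE 0.04, limma FDR 1.8e-05). These values are uncertain, because a processed pseudogene, Gpx4-ps2 (chromosome 10 from 45751387 to 45751941), is identical to the Gpx4 transcript at 553 of 555 bases, and 32.6% of the 100-base stretches of Gpx4 occur in it. Gm63662, a long non-coding RNA gene whose exons on the same strand hold all of Gpx4-ps2, shares 55.6% of them. The pseudogene was listed at 1109.9, 1130.5, 1112 and 1109 CPM in wild types 1 to 4 and 961, 883 and 892 CPM in mutants 1, 2 and 4. It was also lower in the mutant, by 0.29 on the log2 scale (SE 0.04, limma FDR 2.9e-05). With the values of both rows added, an alternative chosen after the data were seen, Gpx4 changed by -0.30 (limma FDR 2.4e-05).

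The peroxiredoxins among the germ-cell forms had the smallest log2 fold changes of the 8. Prdx6b is a single-exon copy of Prdx6 (chromosome 2 from 80122816 to 80125700) and was at 449.5, 459.8, 452 and 452 CPM in wild types 1 to 4 and 403, 412 and 397 CPM in mutants 1, 2 and 4. All mutants were below all wild types, by a small margin, and the gene fell by 0.17 on the log2 scale (SE 0.03, limma FDR 0.0011). Prdx4 encodes the peroxiredoxin of the endoplasmic reticulum and has a testis form (chromosome X from 154106813 to 154123750). It was at 120.2, 135, 135 and 140.0 CPM in wild types 1 to 4 and 132, 135 and 131 CPM in mutants 1, 2 and 4, and wild type 1 was the lowest of the 7 libraries. It changed by 0.01 (SE 0.05, limma FDR 0.93) on the log2 scale. With size factors it was -0.13, still not called, and its sign also turned without wild type 1 (-0.04) and without mutant 2 (-0.0079). Isoforms of a gene are not told apart in the table.

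Set against another form of its family, each germ-cell form had a lower ratio in the mutant. The ratio of the CPM of 2 genes in 1 library does not depend on how that library is scaled. It is not corrected for transcript length and serves to compare the groups only. In all 8 pairs the ratio was lower in each of the 3 mutants than in any wild type. In every pair but Prdx4 with Prdx1, both genes already lay apart between the groups, in opposite directions. That alone fixes a lower ratio, so the ratios are not a separate result. Of all single genes tested, 62.3% did not overlap between the groups, and other pairs of genes were not examined. The two-sided exact permutation p was 0.029 for each pair, the smallest that 3 against 4 libraries allow, and the Benjamini-Hochberg value over the 8 pairs was also 0.029. In the plot of the ratios the distance between the groups differs widely among pairs.

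**Figure D3:**
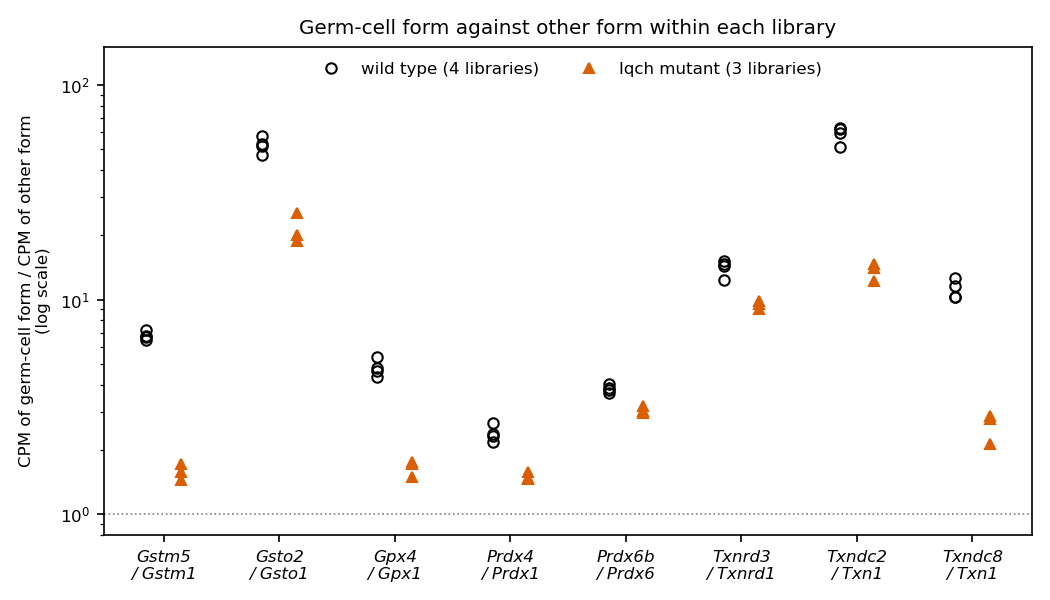
Ratio of the CPM of a germ-cell form to that of another form of its family in each library, on a log scale, with open circles for 4 wild-type and orange triangles for 3 mutant libraries and a dotted line at a ratio of 1. All mutant ratios lie below all wild-type ratios in each of the 8 pairs. The values of Gpx4-ps2 are not added to Gpx4.

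The Gstm5 to Gstm1 ratio and both thioredoxin ratios had the largest changes of the 8 pairs. The ratio of Gstm5 to Gstm1 was 6.49 to 7.2 in wild types and 1.44 to 1.72 in mutants, a change of -2.11 on the log2 scale. Gstm1, a mu class transferase of liver and many somatic tissues (chromosome 3 from 107919380 to 107925380), was at 279, 256, 271 and 259 CPM in wild types 1 to 4 and 871, 909 and 776 CPM in mutants 1, 2 and 4. It rose in each mutant, with a log2 fold change of 1.67 (SE 0.05, limma FDR 2.4e-10). The coding sequences of Gstm1 and Gstm5 are identical at 75.2% of aligned bases, and 0 of the 100-base stretches of Gstm5 occur in another gene's transcript.

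The ratio of Txndc2 to Txn1 was 51.5 to 63.1 in wild types and 12.2 to 14.7 in mutants (change -2.11), and that of Txndc8 to Txn1 was 10.3 to 12.5 in wild types and 2.12 to 2.88 in mutants (change -2.11). They share their denominator, Txn1, the cytosolic thioredoxin (chromosome 4 from 57934208 to 57956424). It was at 10.6, 9.64, 10.6 and 9.72 CPM in wild types 1 to 4 and 30.8, 39.7 and 33 CPM in mutants 1, 2 and 4. No mutant was as low as any wild type, and the log2 fold change was 1.75 (SE 0.09, limma FDR 1e-08).

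The Gpx4 to Gpx1 ratio was 4.33 to 5.37 in wild types and 1.49 to 1.75 in mutants, a change of -1.53. The values of Gpx4-ps2 were not added here, so the level of this ratio depends on how reads were assigned between the rows. Gpx1, the cytosolic glutathione peroxidase (chromosome 9 from 108216102 to 108217546), was at 30.9, 33.2, 28.1 and 34.1 CPM in wild types 1 to 4 and 70.8, 78.7 and 67.5 CPM in mutants 1, 2 and 4. Its groups did not overlap, and its log2 fold change was 1.19 (SE 0.07, limma FDR 4.6e-08). A lncRNA that is annotated on the opposite strand and has no row in the table, Gm57050, covers 85.3% of the exon bases of Gpx1.

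The Gsto2 to Gsto1 ratio was 47.3 to 58 in wild types and 18.6 to 25.2 in mutants, a change of -1.30. Gsto1, the omega class transferase of somatic tissues (chromosome 19 from 47842686 to 47853229), was at 4.25, 4.84, 4.72 and 5.35 CPM in wild types 1 to 4 and 10.7, 9.64 and 7.86 CPM in mutants 1, 2 and 4. The level was low but higher in each mutant, with a log2 fold change of 0.95 (SE 0.12, limma FDR 2.8e-05).

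The change was under 1 on the log2 scale in the other pairs. The Prdx4 to Prdx1 ratio was 2.17 to 2.66 in wild types and 1.46 to 1.58 in mutants, a change of -0.66 that came with a rise of Prdx1 and no called change of Prdx4. Prdx1, a cytosolic peroxiredoxin (chromosome 4 from 116532123 to 116558398), was at 55.3, 57, 58.1 and 52.7 CPM in wild types 1 to 4 and 83.6, 91.5 and 89.9 CPM in mutants 1, 2 and 4, without overlap, and its log2 fold change was 0.66 (SE 0.05, limma FDR 3.4e-07). The Txnrd3 to Txnrd1 ratio was 12.3 to 15.1 in wild types and 9.08 to 9.8 in mutants, a change of -0.57. Txnrd1, the cytosolic thioredoxin reductase (chromosome 10 from 82669785 to 82733546), was at 35.9, 35, 34.3 and 39.6 CPM in wild types 1 to 4 and 47.5, 47.2 and 45.9 CPM in mutants 1, 2 and 4. It was higher in each mutant, with a log2 fold change of 0.37 (SE 0.06, limma FDR 0.00013).

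The Prdx6b to Prdx6 ratio was 3.69 to 4.04 in wild types and 2.97 to 3.19 in mutants, the smallest change of the 8 pairs at -0.33. Prdx6, a peroxiredoxin that also has phospholipase activity (chromosome 1 from 161051417 to 161079098), was at 122, 118, 112 and 119 CPM in wild types 1 to 4 and 136, 129 and 132 CPM in mutants 1, 2 and 4, with the groups apart. Its log2 fold change of 0.17 (SE 0.04, limma FDR 0.0053) became 0.03 with size factors and was then no longer called, and the call was also lost with wild type 2 or 3 or mutant 1 or 4 left out. The coding sequences of this pair are identical at 92.9% of bases, but the 2 transcripts share 0 stretches of 100 bases.

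Levels of different genes were compared per kb of canonical transcript. In wild-type testes the 8 germ-cell forms took 8 of the 10 highest places among the 51 genes, and the other 2 were Gstt4, with 299 CPM per kb, and Gstm1, with 193 CPM per kb. The germ-cell forms ran from 119 CPM per kb for Prdx4 to 1911 CPM per kb for Gstm5. Because the classes were set with earlier results known, these places are not independent of the division. In the mutant Gstm1 reached 617 CPM per kb and Gstm2 272 CPM per kb. The plot of levels per kb shows Gstm5 apart from every other gene in both groups. Gpx4 stands there with its own row only, at 157 CPM per kb in wild types. Gpx4-ps2, at 1115 ± 10.1 CPM (wild type) and 912 ± 42.7 CPM (mutant), was not added. The place of Gpx4, and its distance from Gstm5, therefore depend on how reads were assigned between these rows.

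**Figure D4:**
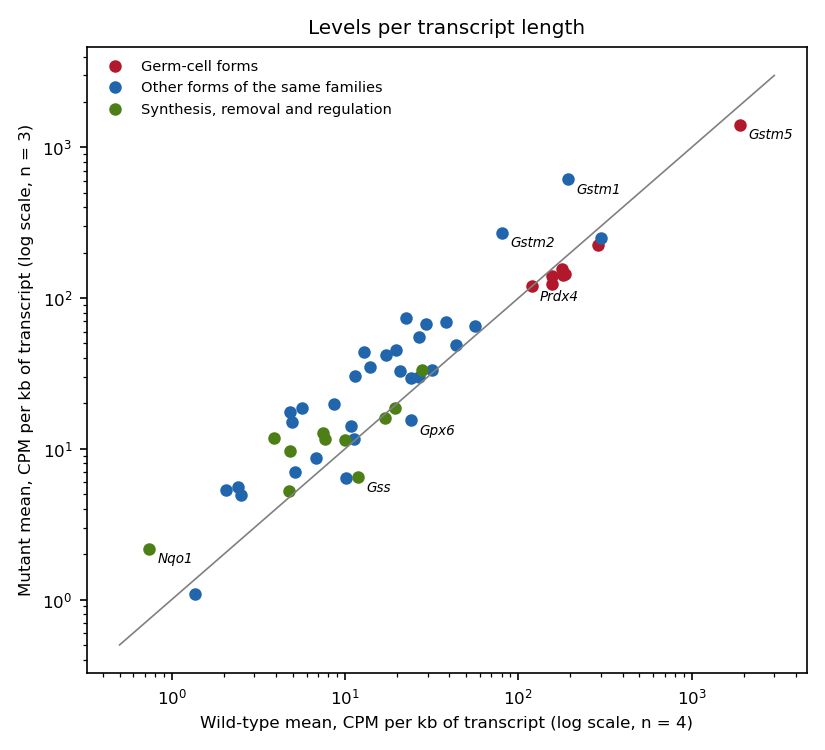
Mean CPM per kb of canonical transcript in the 4 wild-type (x axis) and 3 mutant libraries (y axis), both on log scales, for the 51 antioxidant genes, with a line where both are equal and 7 genes named. The germ-cell forms lie at the upper right on or just below the line, and most of the other forms lie above it.

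As a share of the family's summed CPM per kb, Gstm5 made up 84.6% to 86.1% of the Gstm family in wild-type libraries and 56.5% to 60.0% in mutant libraries. Gpx4 made up 71.5% to 73.8% and 52.6% to 56.3% of the Gpx family, a share that depends on how reads were assigned between it and Gpx4-ps2: with the values of both rows added, it was 95.4% to 95.9% and 90.5% to 91.9%. The share of Prdx4 with Prdx6b in the Prdx family was 63.6% to 65.0% and 53.2% to 54.2%. Txnrd3 kept most of its family, at 92.3% to 93.6% and 88.6% to 89.1%. Gsto2 did so too, at 98.5% to 98.8% and 96.3% to 97.3%. The wild-type and mutant ranges did not overlap in these 5 families. The shares are built from the same genes as the counts above and are not a separate result, and 62.3% of all tested genes did not overlap.

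Several of these genes are neighbours that moved in opposite directions. The mu class genes with a row lie on chromosome 3 in the order Gstm5, Gstm7, Gstm6, Gstm2, Gstm1 and Gstm4, and Gstm3, which has no row, lies between Gstm6 and Gstm2. Gstm5, on the plus strand, fell and the other 5, all on the minus strand, rose, beginning 26.3 kb from its end. Gsto1 and Gsto2 are 0.714 kb apart on chromosome 19, where Gsto1 rose and Gsto2 fell. Txn1 and Txndc8 are 27.6 kb apart on chromosome 4, and Txn1 rose while Txndc8 fell. On chromosome 10, Gstt3, Gstt1, Gstt4 and Gstt2 lie in a row with log2 fold changes of 0.06, 1.37, -0.25 and 0.17, of which those of Gstt1 and Gstt4 were called.

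Among the other transferases, Gstm2 changed most. It was at 95, 83.6, 90.5 and 78.7 CPM in wild types 1 to 4 and 273, 318 and 295 CPM in mutants 1, 2 and 4. Each mutant was above each wild type, with a log2 fold change of 1.76 (SE 0.07, limma FDR 1.2e-09). Its coding sequence is identical to that of Gstm1 at 86.9% of aligned bases, and 17.8% of its 100-base stretches also occur in Gm6665, so the assignment of its reads is uncertain.

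Gstm6 was at 31, 30.8, 41.1 and 29.1 CPM in wild types 1 to 4 and 83.1, 95.8 and 87.3 CPM in mutants 1, 2 and 4, where wild type 3 was the highest wild type but still below all mutants, and its log2 fold change was 1.43 (SE 0.10, limma FDR 1.2e-07). Gstm7 also rose and averaged 54.7 ± 3.47 CPM (wild type) and 99.4 ± 6.02 CPM (mutant), and so did Gstm4, which was at 8.8 ± 0.961 CPM (wild type) and 12 ± 0.549 CPM (mutant). The log2 fold changes were 0.86 and 0.45, and that of Gstm4 was no longer called with size factors (0.32, limma FDR 0.011).

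The alpha class, abundant in liver, rose in 3 of 3 genes. Gsta2 was at 6.16, 4.46, 5.42 and 4.39 CPM in wild types 1 to 4 and 15.5, 18.9 and 16.3 CPM in mutants 1, 2 and 4. Gsta4, which handles hydroxynonenal, a product of lipid peroxidation, was at 40.1, 39.8, 43.9 and 42.4 CPM in wild types 1 to 4 and 82.9, 105 and 97.2 CPM in mutants 1, 2 and 4. Gsta3 was at 27.5, 47.5, 38.2 and 43.4 CPM in wild types 1 to 4 and 76.8, 94.4 and 70.3 CPM in mutants 1, 2 and 4. In all 3 the groups were apart, and wild type 1 was the lowest for Gsta3. The log2 fold changes were 1.72 (SE 0.13, limma FDR 1.9e-07) for Gsta2, 1.19 (SE 0.07, limma FDR 3.9e-08) for Gsta4 and 1.06 (SE 0.15, limma FDR 5.9e-05) for Gsta3. For Gsta2, 33.3% of the 100-base stretches occur in other genes, mostly in Gsta5, which has no row.

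The measured genes of the pi, kappa and zeta classes, 1 of each, rose too. Gstp1, a pi class transferase, was at 7.48, 7.31, 7.46 and 9.16 CPM in wild types 1 to 4 and 17.6, 18.1 and 17.8 CPM in mutants 1, 2 and 4, with wild type 4 the highest of its group. Its log2 fold change was 1.18 (SE 0.09, limma FDR 3.3e-07), and 47.3% of its 100-base stretches occur in Gstp2 as well. Gstk1, the transferase of mitochondria and peroxisomes, was at 5.48, 4.17, 5.05 and 4.79 CPM in wild types 1 to 4 and 13.5, 14.5 and 16.6 CPM in mutants 1, 2 and 4. Its groups were far apart, with a log2 fold change of 1.59 (SE 0.11, limma FDR 1.4e-07). Gstz1, which is also the maleylacetoacetate isomerase of tyrosine breakdown, was at 53.9 ± 1.2 CPM (wild type) and 65.7 ± 2.13 CPM (mutant) (log2 fold change 0.28, and 0.15 with size factors, no longer called). Tmed8 exons on the opposite strand cover 17.8% of the exon bases of Gstz1.

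The theta class was divided. Gstt1 was at 4.55, 3.47, 2.92 and 3.2 CPM in wild types 1 to 4 and 9.65, 8.95 and 8.88 CPM in mutants 1, 2 and 4. It was low and higher in each mutant, with a log2 fold change of 1.37 (SE 0.14, limma FDR 3.7e-06). Gstt4 averaged 289 ± 10.2 CPM (wild type) and 242 ± 9.98 CPM (mutant) and fell by 0.25 on the log2 scale (SE 0.04, limma FDR 0.00025). It was the second most abundant of the 51 genes per kb in wild-type testes, with the values of Gpx4-ps2 kept apart from those of Gpx4. Gstt2 was at 69 ± 3.86 CPM (wild type) and 77.8 ± 5.22 CPM (mutant) and Gstt3 at 21.3 ± 1.47 CPM (wild type) and 22.1 ± 0.419 CPM (mutant). Neither was called, though Gstt2 was called higher without mutant 1 (0.23, limma FDR 0.008), and Gstt3 had a log2 fold change of -0.08 with size factors.

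The membrane-bound transferases moved both ways. Mgst1, of the endoplasmic reticulum and outer mitochondrial membrane, was at 24.4, 27.7, 28.6 and 26.8 CPM in wild types 1 to 4 and 80.4, 90.6 and 92.1 CPM in mutants 1, 2 and 4. The mutants were well above the wild types, with a log2 fold change of 1.70 (SE 0.07, limma FDR 1.6e-09). Mgst2, which can make leukotriene C, was at 7.93 ± 0.977 CPM (wild type) and 5.02 ± 0.22 CPM (mutant) and fell by 0.64 on the log2 scale (SE 0.11, limma FDR 0.00033). Mgst3 was at 9.63 ± 0.795 CPM (wild type) and 12.4 ± 1.2 CPM (mutant), with a log2 fold change of 0.36 (SE 0.10, limma FDR 0.0065). That call was lost with size factors and with wild type 3 or 4 or mutant 1 or 4 left out.

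**Figure D5:**
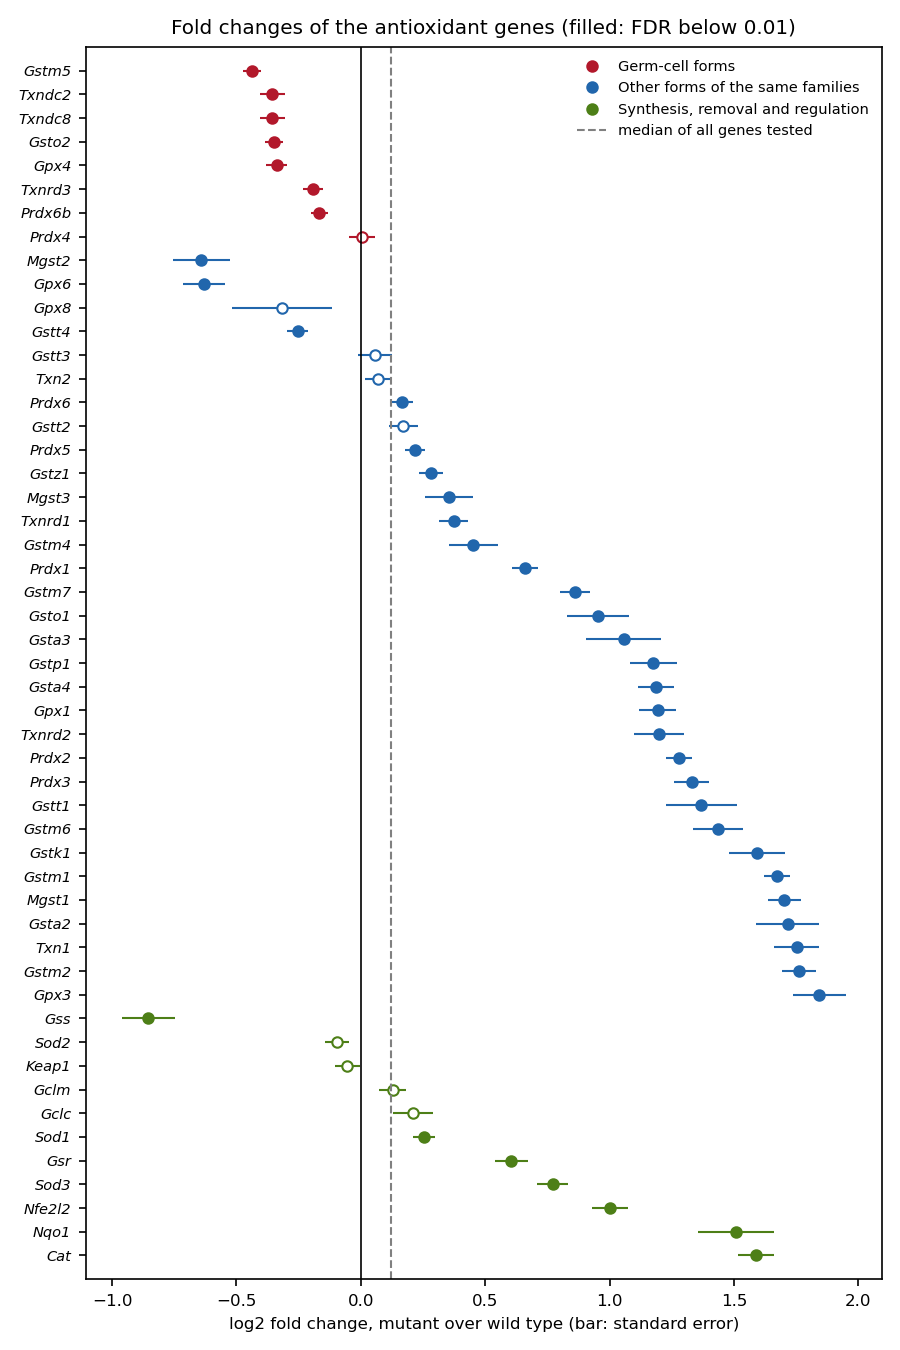
Log2 fold change of mutant over wild type (x axis) with its standard error for the 51 antioxidant genes, coloured by class, with filled points for FDR below 0.01 and a dashed line at the median of all genes. The largest values are those of Gpx3 (1.84), Gstm2 (1.76) and Txn1 (1.75), and the lowest is that of Gss (-0.85).

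Of the remaining peroxidases, Gpx3, the secreted form found in plasma, was at 14.2, 14.1, 12.4 and 14.2 CPM in wild types 1 to 4 and 54.4, 55.8 and 39.7 CPM in mutants 1, 2 and 4. Mutant 4 was the lowest mutant, and it was still above every wild type. The log2 fold change was 1.84 (SE 0.11, limma FDR 2.7e-08). Exons of Tnip1 on the opposite strand cover 85.0% of the exon bases of Gpx3, so reads of the 2 genes could be confused if counting ignored strand. Gpx6, which reads TGT where the selenoenzymes have TGA, was at 32.2 ± 3.15 CPM (wild type) and 20.7 ± 1.76 CPM (mutant) and fell by 0.63 on the log2 scale (SE 0.08, limma FDR 3.2e-05). Gpx8, a membrane protein of the endoplasmic reticulum with TGC at that codon, was at 2.51 ± 0.446 CPM (wild type) and 2.02 ± 0.489 CPM (mutant) and was not called, with a log2 fold change of -0.32 (SE 0.20, limma FDR 0.19).

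Prdx2 and Prdx3 had larger log2 fold changes than Prdx1, a difference that was not tested. Prdx2, a cytosolic peroxiredoxin, was at 36.5, 35.8, 36.7 and 38.6 CPM in wild types 1 to 4 and 85.9, 93.5 and 89.8 CPM in mutants 1, 2 and 4. Prdx3, the mitochondrial one, was at 19.4, 20.6, 20.5 and 22.1 CPM in wild types 1 to 4 and 47.5, 56.7 and 52.3 CPM in mutants 1, 2 and 4. In both, the lowest mutant was above the highest wild type, and the log2 fold changes were 1.28 (SE 0.05, limma FDR 1.6e-09) and 1.33 (SE 0.07, limma FDR 1.4e-08). Prdx5, found in mitochondria and peroxisomes, was at 88.4 ± 1.57 CPM (wild type) and 103 ± 1.11 CPM (mutant), with a log2 fold change of 0.22 that was no longer called with size factors (0.08). Exons on the opposite strand cover 29.2% of the exon bases of Prdx5 (Trmt112) and 16.8% of those of Prdx2 (Rnaseh2a).

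In the mitochondrial thioredoxin system the reductase rose and the thioredoxin was not called. Txnrd2 was at 4.88, 4.95, 4.17 and 4.71 CPM in wild types 1 to 4 and 11.5, 10.3 and 10.8 CPM in mutants 1, 2 and 4. The groups were apart, with a log2 fold change of 1.20 (SE 0.10, limma FDR 5.9e-07). Txn2 was at 70.1 ± 2.31 CPM (wild type) and 73.6 ± 4.24 CPM (mutant), with a log2 fold change of 0.07 (SE 0.05, limma FDR 0.27) and of -0.07 with size factors.

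Glutathione synthesis showed 1 large decrease. Gss encodes glutathione synthetase, the second enzyme of synthesis, and was at 20.3, 21.7, 22.9 and 28.4 CPM in wild types 1 to 4 and 11.8, 13.7 and 12.9 CPM in mutants 1, 2 and 4. Every mutant was below every wild type, and wild type 4 was the highest. It fell by 0.85 on the log2 scale (SE 0.11, limma FDR 1.7e-05), the largest decrease among the 51 genes. Exons of Acss2 on the opposite strand cover 21.9% of its exon bases.

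The 2 subunits of glutamate-cysteine ligase, the first enzyme of synthesis, were not called. The catalytic subunit Gclc was at 31.1, 32.6, 34.6 and 39.2 CPM in wild types 1 to 4 and 38.4, 42.9 and 37.7 CPM in mutants 1, 2 and 4, where the groups overlapped. The log2 fold change was 0.21 (SE 0.08, limma FDR 0.035), and without wild type 4 it was 0.27 and was called (limma FDR 0.004). The modifier subunit Gclm was at 29.5, 31.2, 30.9 and 29.7 CPM in wild types 1 to 4 and 32.4, 33.7 and 33.3 CPM in mutants 1, 2 and 4, where the groups were just apart. It changed by 0.13 (SE 0.05, limma FDR 0.055) on the log2 scale, about the median of all genes, and it was -0.0063 with size factors.

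Recycling and removal enzymes were higher. Gsr, glutathione reductase, was at 19.3, 19.9, 20.3 and 22 CPM in wild types 1 to 4 and 29.8, 31.3 and 32 CPM in mutants 1, 2 and 4. Cat, the peroxisomal enzyme that breaks down hydrogen peroxide, was at 11, 9.85, 10.1 and 9.72 CPM in wild types 1 to 4 and 29.99, 32.2 and 30.1 CPM in mutants 1, 2 and 4. The groups were apart for both, and the log2 fold changes were 0.61 (SE 0.07, limma FDR 5e-06) for Gsr and 1.59 (SE 0.07, limma FDR 4.3e-09) for Cat.

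The 3 superoxide dismutases sit in different compartments, and 2 of them were called. The extracellular Sod3 was at 30.5, 28.4, 26.9 and 31.7 CPM in wild types 1 to 4 and 50.4, 50.4 and 49.5 CPM in mutants 1, 2 and 4. It was higher in every mutant, with a log2 fold change of 0.77 (SE 0.06, limma FDR 4.5e-07). The cytosolic Sod1 was at 150.5, 149, 140.3 and 151 CPM in wild types 1 to 4 and 183, 173 and 173 CPM in mutants 1, 2 and 4, and its groups were apart. It rose by 0.25 (SE 0.04, limma FDR 0.00024) on the log2 scale, which was 0.12 and not called with size factors, and Scaf4 exons on the opposite strand cover 48.8% of its exon bases. The mitochondrial Sod2 was at 108, 102, 103 and 96.4 CPM in wild types 1 to 4 and 96.5, 96.6 and 94.1 CPM in mutants 1, 2 and 4, and wild type 4 and mutants 1 and 2 were nearly equal. It was not called, with a log2 fold change of -0.10 (SE 0.05, limma FDR 0.091), whereas with size factors it was called lower at -0.23 (limma FDR 0.0011).

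Nfe2l2 encodes NRF2, the transcription factor that drives many antioxidant genes, and KEAP1 marks NRF2 for degradation. Nfe2l2 was at 18.6, 15.8, 18.3 and 16.7 CPM in wild types 1 to 4 and 33.2, 35.3 and 35.9 CPM in mutants 1, 2 and 4, with no overlap and a log2 fold change of 1.00 (SE 0.07, limma FDR 1.5e-07). Keap1 was at 64.6, 62.3, 58.8 and 61.5 CPM in wild types 1 to 4 and 59.9, 57.9 and 60.8 CPM in mutants 1, 2 and 4. Its groups overlapped and its log2 fold change was -0.05 (SE 0.05, limma FDR 0.36), but with size factors it was called lower at -0.19 (limma FDR 0.0055). Nqo1, a quinone reductase and textbook NRF2 target, was at 1.65, 1.89, 2.16 and 2.24 CPM in wild types 1 to 4 and 4.97, 6.14 and 6.36 CPM in mutants 1, 2 and 4. It was the least abundant of the 51 genes per kb in wild-type testes and was higher in each mutant, with a log2 fold change of 1.51 (SE 0.15, limma FDR 3e-06). Nqo1 passed the minimum of 2.2 CPM in 2 samples of a group only through its mutant values. Its rise is therefore not independent of that minimum. With size factors the synthesis, removal and regulation genes split into 5 higher and 3 lower, against 6 higher and 1 lower on the deposited CPM.

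NRF2 acts through the antioxidant response element, and its core, written TGACNNNGC, was searched on both strands of RefSeq promoters of GRCm38.p6, from 250 bases before to 50 after the gene start. Promoters were found for 44 of the 51 genes, and 10 of these genes (22.7%) held the core, against 14.0% of the 27025 genes with a promoter. It was present in 7 of 27 genes called higher with a promoter (25.9%), in 2 of 10 called lower and, by class, in 2 of 7 germ-cell forms, 5 of 29 other forms and 3 of 8 genes of synthesis, removal and regulation. The cAMP response element TGACGTCA, which overlaps the core in its first 4 letters, was found in 0 of the 44 genes and in 2.03% of all. A match describes the letters only. The promoters below, chosen after their values were seen, show the core in capitals in 1 germ-cell form that fell and in 3 other forms that rose, each 5′ to 3′ on the gene's strand. In the last 3 the capitals are the reverse complement of the core.
Gstm5, chr3:107895802-107895831: caccgcccacTGACCACGCggagggcgggt
Prdx1, chr4:116685456-116685485: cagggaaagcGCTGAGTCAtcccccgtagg
Txnrd1, chr10:82859104-82859133: ctggatttttGCTTTGTCAttctgacacgg
Mgst1, chr6:138140461-138140490: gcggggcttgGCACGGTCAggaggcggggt
The core began 42, 133, 92 and 56 bases before the gene start in Gstm5, Prdx1, Txnrd1 and Mgst1.

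The pathways around these enzymes were followed through 5 lists of other genes, with the number tested given for each list below. On the deposited CPM 56 were higher and 8 lower, and with size factors 47 were higher and 17 lower. Over all genes tested 36.3% were higher and 14.2% lower, or 27.0% and 25.1% with size factors. With 1 library left out, the lower pathway genes numbered 2 (without mutant 4) to 7, with 3 without mutant 2, 4 without wild type 1 and 5 without wild type 2. Of 21 tested genes of glutathione turnover and transport, 10 (47.6%) were higher and 3 (14.3%) lower (median 0.39), and with size factors 8 and 4 (median 0.26). Nat8, an N-acetyltransferase of the endoplasmic reticulum that acts on cysteine conjugates, rose from 4.97 ± 1.27 to 22.2 ± 6.45 CPM, by 2.13 (SE 0.20, limma FDR 1.8e-06) on the log2 scale. Slc3a2, the heavy chain of the cystine transporter, rose from 118 ± 7.48 to 244 ± 6.3 CPM, by 1.05 (SE 0.05, limma FDR 7.3e-09) on the log2 scale. Ggt5, a gamma-glutamyltransferase, rose from 1.88 ± 0.391 to 3.96 ± 0.58 CPM, by 1.05 (SE 0.19, limma FDR 0.00034) on the log2 scale. Like Nqo1, Ggt5 passed the minimum for testing only through its mutant values. The 3 lower genes, named after their values were seen, were the dipeptidase Dpep3 (-0.19), the mitochondrial glutathione carrier Slc25a39 (-0.16) and Hagh of the glyoxalase pathway (-0.16).

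Of 20 thiol redox genes, 10 were higher and 1 lower (median 0.27), and with size factors 9 and 2 (median 0.14). Glrx, a glutaredoxin, rose from 2.59 ± 0.305 to 8.66 ± 0.429 CPM, by 1.71 (SE 0.12, limma FDR 1.6e-07) on the log2 scale. The thioredoxin inhibitor Txnip rose from 67.3 ± 3.72 to 206 ± 7.76 CPM, by 1.61 (SE 0.05, limma FDR 2.4e-10) on the log2 scale. The methionine sulfoxide reductase Msrb1 rose from 5.33 ± 0.324 to 11.1 ± 0.468 CPM, by 1.05 (SE 0.09, limma FDR 1e-06) on the log2 scale. The 1 lower gene was Nme8, a thioredoxin-domain gene of sperm that fell by 0.20 on the log2 scale (SE 0.04, limma FDR 0.0013), named after its value was seen.

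Of 12 genes of NADPH supply, 9 were higher and 1 lower (median 0.59), and with size factors 7 and 2 (median 0.46). The mitochondrial isocitrate dehydrogenase Idh2 rose from 6.69 ± 0.511 to 20.8 ± 0.556 CPM, by 1.63 (SE 0.09, limma FDR 1.2e-08) on the log2 scale. Its cytosolic counterpart Idh1 rose from 51.3 ± 4.81 to 155 ± 19.7 CPM, by 1.59 (SE 0.09, limma FDR 2e-08) on the log2 scale. Tkt, the transketolase of the pentose phosphate pathway, rose from 29.9 ± 1.5 to 78.7 ± 3.03 CPM, by 1.39 (SE 0.06, limma FDR 1.6e-09) on the log2 scale. The 1 lower gene was the mitochondrial malic enzyme Me3 (-0.42), named after its value was seen.

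Of 21 genes of other selenoproteins and their synthesis, 9 (42.9%) were higher and 2 (9.5%) lower (median 0.19). These shares were near those of all genes, 36.3% and 14.2%. With size factors 7 were higher and 7 lower (median 0.053). Selenop, the plasma carrier of selenium, rose from 49.6 ± 4.99 to 154 ± 23.4 CPM, by 1.63 (SE 0.10, limma FDR 3.1e-08) on the log2 scale. Selenon and Selenom, both of the endoplasmic reticulum, had log2 fold changes of 1.13 (SE 0.17, limma FDR 9.7e-05) and 1.12 (SE 0.13, limma FDR 9.4e-06). The 2 lower genes were Scly, a selenocysteine lyase (-0.43), and Sepsecs, which makes selenocysteine on its tRNA (-0.29), both named after their values were seen.

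Of 21 other NRF2 partners and targets, 18 (85.7%) were higher and 1 (4.8%) lower (median 0.81), and with size factors 16 and 2 (median 0.68). Ephx1, the microsomal epoxide hydrolase, rose from 89.2 ± 10.3 to 273 ± 28.1 CPM, by 1.61 (SE 0.09, limma FDR 1.7e-08) on the log2 scale. The biliverdin reductase Blvrb rose from 4.78 ± 0.20 to 12.7 ± 0.0953 CPM, by 1.39 (SE 0.09, limma FDR 5.8e-08) on the log2 scale. Pir, a nuclear iron protein, rose from 1.33 ± 0.303 to 3.25 ± 0.158 CPM, by 1.25 (SE 0.19, limma FDR 9.5e-05) on the log2 scale. Like Nqo1, Pir passed the minimum for testing only through its mutant values. The 1 lower gene was Osgin1 (-0.39), named after its value was seen. The Leydig cell, Sertoli cell and macrophage markers above rose beside these lists, and their part in them was not tested.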

How the data were processed

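Testis RNA was sequenced in 4 wild-type and 3 Iqch mutant libraries. Per the labels and the study's methods, the authors used Trimmomatic for trimming, Subread for mapping to GRCm39 and featureCounts for counting. They kept a gene if 2 samples of a group had 75 reads or more, and deposited its CPM. Each library's CPM sum to 1000000, which leaves no scaling factor between samples. The annotation release and strand setting of the counting are not given in the sources used here. Exons of further members overlap genes on the opposite strand, and not all of these overlaps are listed.

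A gene was tested if 2 samples of a group reached 2.2 CPM. Some genes, such as Nqo1, Ggt5 and Pir, met this only through the mutants, so their rises are not independent of the minimum. The test was limma (version 3.58.1, R version 4.3.3) with lmFit and a trended eBayes on log2(CPM + 0.1). Count tests were not used on CPM. Pairs of genes used an exact permutation test of log2 ratios with the same pseudocount. Symbols, coordinates and transcripts came from GENCODE M39. The fit was tested on simulated data. The antioxidant genes, classes and lists were chosen with earlier results of these data known. Library values are given for germ-cell forms, their paired forms, the synthesis, removal and regulation genes, and other members called with a log2 change of 1 or more. Each pathway list names its 3 largest called changes. The alternatives were pseudocounts of 1 and 0.01, a CPM minimum of 5 or none, size factors, a replicate block and each library left out. Depth was 32064384 to 37551057 reads per library, if the smallest CPM step is 1 read. Intervals were not computed for single values, and isoforms were not analysed.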

Additional observations from a re-analysis of the deposited data

Results flagged for a closer look

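In 4 of 55 wild-type groups of 4 libraries (the 51 genes, their pseudogenes and Iqch), 1 library lay far from the other 3 by Dixon's criterion, which chance alone meets in about 1 of 20 groups. Gstp1 reached 9.16 CPM in wild type 4, against 7.31 to 7.48 CPM in the others. Gstm6 reached 41.1 CPM in wild type 3, against 29.1 to 31.0 CPM in the others. Gpx3 was lowest in wild type 3 with 12.4 CPM, against 14.1 to 14.2 CPM in the others. Gpx4-ps2 reached 1130.5 CPM in wild type 2, against 1109 to 1112 CPM in the others. Each of these wild-type values was on the same side of all 3 mutant values as the rest of its group.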

How the results depend on the processing

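Of the 51 antioxidant genes, 37 kept their direction and their side of the threshold under every alternative in which they were tested, and 14 did not. Size factors moved most. They turned the sign of 4 genes that were not called, Gclm (-0.0063), Gstt3 (-0.079), Prdx4 (-0.13) and Txn2 (-0.066), and 6 higher genes were no longer called. They raised the lower genes of synthesis, removal and regulation from 1 to 3 and the lower pathway genes from 8 to 17. The log2 fold change of Prdx4 ran from -0.040 (without wild type 1) to 0.033 (without wild type 4) and was -0.0079 without mutant 2. With 1 library left out, the count of lower pathway genes ran from 2 (without mutant 4) to 7, with 4 without wild type 1, 5 without wild type 2 and 3 without mutant 2. The count of higher antioxidant genes ran from 29 to 31 and that of lower ones stayed at 11.

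Samples with the same number did not deviate together (r = 0.026, 0.0094 and -0.098 for numbers 1, 2 and 4), and not every library correlated best with its own number. With the replicate number as a block over numbers 1, 2 and 4, 29 antioxidant genes were higher and 11 lower, and Prdx6 and Mgst3 were no longer called. That fit also left out wild type 3, and without wild type 3 alone both calls were lost as well (limma FDR 0.013 and 0.014). Adding pseudogene values to their parents, chosen after seeing the data, changed 0 of these counts. Values near 2 CPM, such as those of Nqo1 and Gpx8, rest on the fewest reads.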

Other observations

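Beside Gpx4-ps2, 2 more processed pseudogenes of these families had rows, and both are named for a parent. Gstm2-ps1 (chromosome 5 from 116770967 to 116771623) was at 30.6, 27.4, 30.1 and 28 CPM in wild types 1 to 4 and 97.9, 104 and 85.8 CPM in mutants 1, 2 and 4, with no overlap between the groups. Its log2 fold change was 1.72 (SE 0.07, limma FDR 1.7e-09), beside 1.67 for Gstm1 and 1.76 for Gstm2. Despite its name, it is identical to the Gstm1 transcript at 97.9% of aligned bases and to that of Gstm2 at 85.8%, and it shares 100-base stretches with Gstm1 (7.35% of its own) and 0 with Gstm2. Prdx2-ps1 (chromosome 1 from 99718154 to 99718750) was at 4.73, 5.13, 4.53 and 5.59 CPM in wild types 1 to 4 and 4.6, 4.99 and 5.01 CPM in mutants 1, 2 and 4, where the groups overlapped. It was not called, with a log2 fold change of -0.03 (SE 0.11, limma FDR 0.81), while Prdx2, to which it is identical at 96.3% of bases, rose by 1.28 on the log2 scale.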
